A study of Homo sapiens with 6 samples.

Results

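The alpha and beta tubulin genes expressed in HCT116 cells were followed after loss of Matrin3, an RNA-binding protein of the nuclear matrix. The members were the rows of the deposited gene tables whose identifier carries the symbol TUBA1A, TUBA1B, TUBA1C, TUBA4A, TUBB, TUBB2A, TUBB3, TUBB4A, TUBB4B or TUBB6, which is 10 of 58884 genes, 4 of them alpha and 6 beta. HCT116 is an established human colorectal cancer line. The cells were transfected with pooled siRNAs targeting Matrin3 (siMatrin3) or with a non-targeting siRNA (siCTRL), and RNA was taken 48 h later from 3 cultures of each group, which the methods call biological triplicates. Both groups are otherwise the same unedited cells, so a transient and incomplete knockdown in 1 line is the model. The question was whether the mRNA levels of the tubulin genes differed between the groups, and by how much.

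Alpha and beta tubulin fold with the help of chaperones, pair into heterodimers, and the heterodimers polymerize into microtubules, which form the mitotic spindle. Humans carry several genes for each, called isotypes, whose coding sequences are close to each other and whose products differ mostly in the acidic tail at the C terminus, where enzymes add or remove tyrosine, glutamate and glycine. Cells also adjust tubulin mRNA to the pool of free tubulin: TTC5 recognizes the first residues of a tubulin chain as it leaves the ribosome and, through SCAPER, brings the CCR4-NOT deadenylase to the mRNA being translated.

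The start of the coding sequence is shown for 5 members because TTC5 reads what it encodes. The first 30 bases are given 5′ to 3′ from the GENCODE 44 transcripts, with the first 12 bases, the part that encodes the residues TTC5 reads, in capitals.
TUBA1B: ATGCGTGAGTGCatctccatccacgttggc
TUBA4A: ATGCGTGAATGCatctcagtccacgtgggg
TUBB: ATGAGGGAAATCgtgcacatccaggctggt
TUBB2A: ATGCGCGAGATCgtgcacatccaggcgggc
TUBB6: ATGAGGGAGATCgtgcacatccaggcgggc
TUBA1A and TUBA1C have the same 30 bases as TUBA1B.

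The end of the coding sequence is shown for 5 members because it holds the tail by which isotypes are told apart. The last 30 bases, stop codon included, are given with the codon before the stop in capitals.
TUBA1C: gacggagaggatgagggtgaagagTATtaa
TUBA4A: tatgaggacgaggatgagggagaaGAAtaa
TUBB2A: gaggaggaggagggcgaggacgagGCTtaa
TUBB3: gaggagtcggaggcccagggccccAAGtga
TUBB6: gaggatgaggaagaggagatcgatGGAtag
TUBA1C ends in a codon for tyrosine, the residue that TTL adds back and VASH enzymes remove, whereas TUBA4A is known as the isotype encoded without it. Each member's transcript has 4 exons, and the 10 coding sequences hold 444 to 451 codons before the stop.

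This closeness limits how reads can be assigned. Coding sequences of TUBA1A and TUBA1B were 97.2% identical, those of TUBA1B and TUBA1C 96.83%, and those of TUBA1A and TUBA1C 95.87%, whereas beta pairs lay between 80.91% and 90.06%. Each member's main GENCODE 44 transcript was cut into every window of 50 bases, the length of the reads, and each window was looked up in the transcripts of all other genes. TUBB3 shared 92.76% of its windows with another gene on the same strand, all of them also present in a read-through gene at the same locus, ENSG00000198211. TUBB2A shared 64.58%, most of them with its neighbour copy TUBB2B (59.54%), which had 0 counts in all 6 libraries. TUBA1B shared 62.74%, TUBA1A 47.26% and TUBA1C 26.75%. TUBB shared 19.30%, most of them with the pseudogene TUBBP1 (17.11%), and TUBB4B 10.37%. TUBB4A shared 6.73%, TUBA4A 5.55% and TUBB6 1.09%, the lowest share among the members. None of the 10 members had a whole-number count, to within 0.001, in any library, whereas 42.0% of the tested genes had whole counts in all 6 libraries and 27.8% had none. The member counts are therefore estimates of how shared reads divide.

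**Figure D1:**
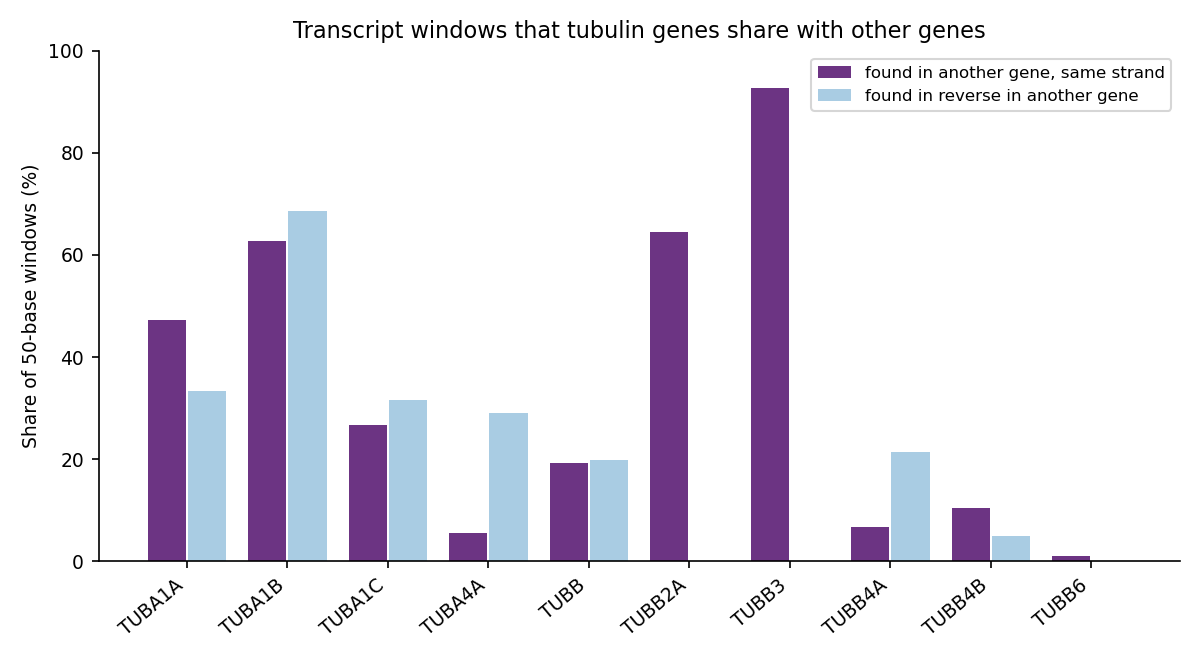
Share of each member's 50-base transcript windows (vertical axis, percent) that also occur in another gene on the same strand (dark bars) or in reverse orientation in another gene (light bars), in GENCODE 44. TUBB3 (92.76%) and TUBB2A (64.58%) had the highest same-strand shares and TUBB6 (1.09%) the lowest.

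The libraries held 4556658 to 8400412 estimated counts each, of which the 10 members took 0.414% to 0.449% and mitochondrially encoded genes 9.03% to 11.6%. The knockdown was checked on MATR3 itself. MATR3 had 72.4, 67.9 and 71.4 CPM (each count divided by the library total scaled with edgeR's TMM factor) in siMatrin3 replicates 1 to 3, against 363, 343 and 330.2 CPM in siCTRL replicates 1 to 3. This is a log2 fold change of -2.29 ± 0.06 (SE, adjusted p = 7.58e-11 by edgeR's quasi-likelihood test), and all libraries matched their labels. Of 14334 genes high enough to test, 10.9% passed an adjusted p of 0.05, 5.68% higher and 5.18% lower in siMatrin3 cells. Log2 fold changes are siMatrin3 over siCTRL throughout, and the median over all tested genes was -0.00.

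Levels per transcript length were compared as TPM, which RSEM scales by transcript length within a library. TUBA1B and TUBB, the isotypes that most dividing cells use, were the highest. TUBA1B averaged 754 ± 41.6 TPM in siMatrin3 cells and 859 ± 21.1 TPM in siCTRL cells (SD, n = 3 each, as for all TPM means that follow). TUBB averaged 697 ± 4.50 TPM in siMatrin3 cells and 701 ± 23.7 TPM in siCTRL cells. TUBA1C came next, with 422 ± 43.0 and 407 ± 36.9 TPM in siMatrin3 and siCTRL cells, and then TUBB4B, with 285 ± 14.9 and 318 ± 1.204 TPM. These 4 genes did not overlap with each other in either group.

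The other 6 members lay below TUBB4B in every library. TUBB6 averaged 54.5 ± 1.61 TPM in siMatrin3 cells and 50.7 ± 0.968 TPM in siCTRL cells. TUBB3, the isotype best known from neurons, averaged 41.5 ± 3.29 TPM in siMatrin3 cells and 55.8 ± 5.32 TPM in siCTRL cells. TUBB6 stood above TUBB3 in every siMatrin3 library, whereas their siCTRL ranges overlapped. TUBA1A averaged 25.5 ± 7.47 and 34.9 ± 6.88 TPM, and TUBB2A 25.4 ± 1.08 and 34.1 ± 4.39 TPM, in siMatrin3 and siCTRL cells. These were neighbours that overlapped in both groups. TUBA4A averaged 21.0 ± 1.37 TPM in siMatrin3 cells and 21.0 ± 1.92 TPM in siCTRL cells. TUBB4A averaged 20.7 ± 2.78 and 17.0 ± 1.39 TPM, overlapping with TUBA4A in siMatrin3 cells and lying below it in siCTRL cells. Of the remaining alpha and beta genes, TUBB1, TUBA8 and TUBA3D were the highest and reached means of 1.65, 1.42 and 0.967 CPM in siCTRL cells, too low to test.

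Differences between siMatrin3 and siCTRL cells were small for all members. Without a pairing term, of the 10 members 2 rose (TUBB4A and TUBB6), 1 fell (TUBB2A) and 7 did not pass the test, beside 10.9% of all tested genes. With the replicate number as a block 6 passed, adding TUBA1A, TUBA1C and TUBB3, beside 15.8% of all tested genes. All 3 that passed without the block are among the less abundant beta genes. The median log2 fold change of the members was 0.03. In these bulk libraries, fewer cells of a kind and less RNA per cell cannot be told apart. The CPM of the groups did not overlap for 6 of the 10 members (TUBA4A, TUBB, TUBB4A and TUBB6 higher, TUBA1B and TUBB2A lower), whereas this held for 29.8% of all tested genes. In TPM only TUBB6 lay higher without overlap, whereas TUBA1B, TUBB2A, TUBB3 and TUBB4B lay lower. TUBA4A, TUBB and TUBB4A overlapped in TPM. The share of all tested genes without overlap in TPM was not counted. With 3 libraries against 3, an exact permutation test of a single value can give no p under 0.1.

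**Figure D2:**
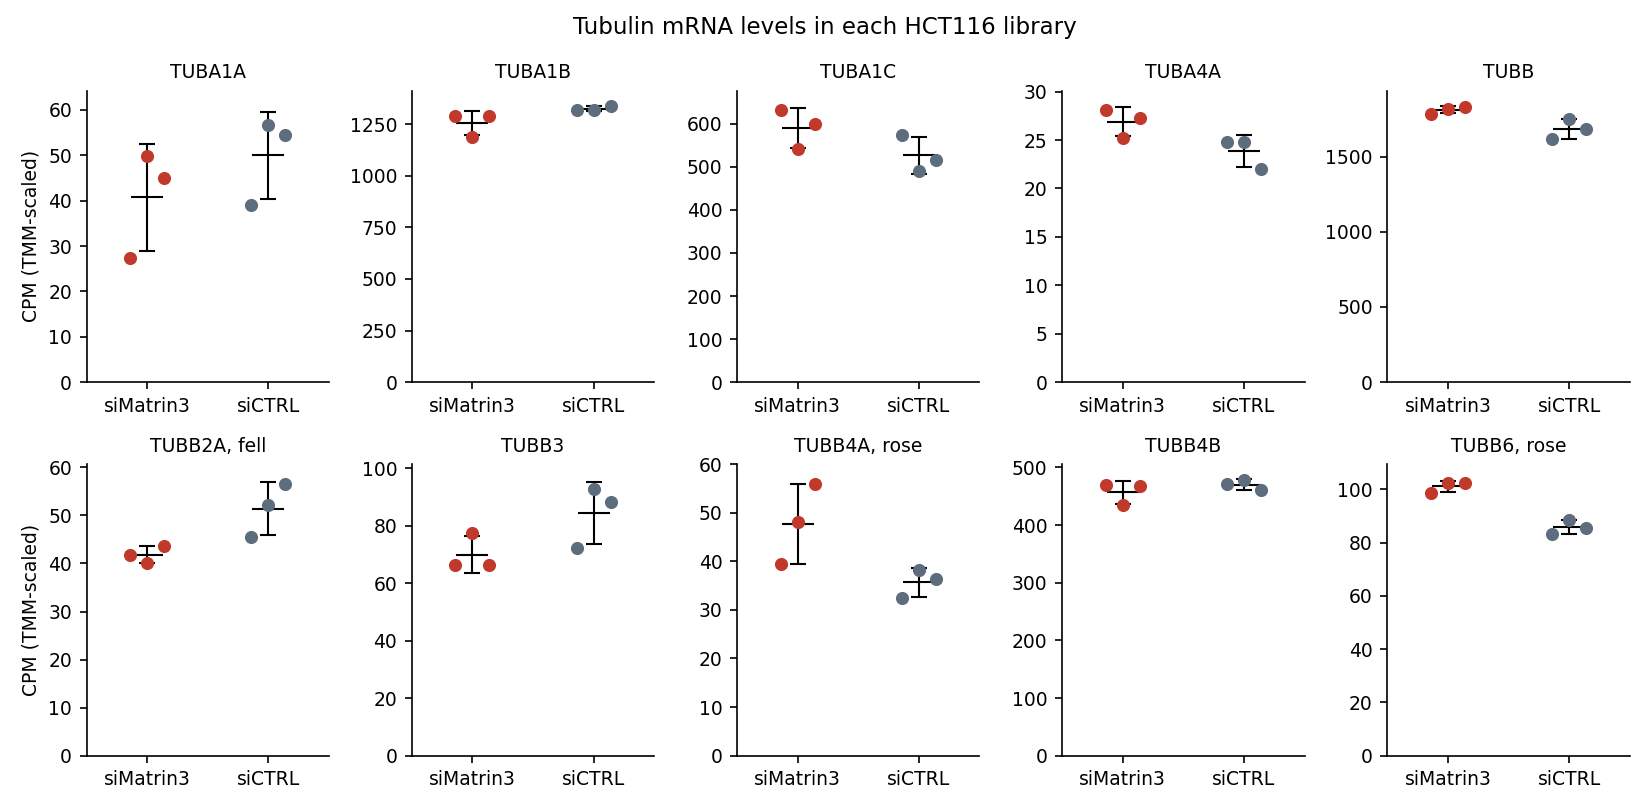
TMM-scaled CPM (vertical axes, each from 0) of the 10 members in each library, siMatrin3 (left) and siCTRL (right), with bars for mean ± SD (n = 3 each). TUBB4A and TUBB6 rose and TUBB2A fell. The libraries numbered 1, drawn leftmost in each group, were the lowest for TUBA1A and the highest for TUBA1C in both groups.

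TUBB6, a widely expressed beta isotype at chr18:12307669-12344320 (hg38), had 98.6, 102 and 102 CPM in siMatrin3 libraries and 83.3, 88.6 and 85.4 CPM in siCTRL libraries. All siMatrin3 libraries lay above all siCTRL libraries, in CPM and in TPM. The log2 fold change was 0.23 ± 0.06 (SE, adjusted p = 0.0273). Leaving out any library other than siCTRL replicate 2 ended the call, with adjusted p values up to 0.0966 and log2 fold changes from 0.21 to 0.25.

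TUBB4A is an isotype best known from the brain, where its mutations cause leukodystrophy. It lies at chr19:6494319-6502848 (hg38). It had 39.4, 48.1 and 55.8 CPM in siMatrin3 libraries and 32.4, 38.2 and 36.5 CPM in siCTRL libraries. The groups did not overlap in CPM, although siMatrin3 replicate 1 lay close to siCTRL replicate 2. The log2 fold change was 0.40 ± 0.12 (SE, adjusted p = 0.0440). The call held without siMatrin3 replicate 1 (0.53) and was lost without any other library, down to 0.27 without siMatrin3 replicate 3. In TPM the groups overlapped, with 18.0 to 23.5 TPM in siMatrin3 libraries and 15.4 to 18.1 TPM in siCTRL libraries.

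TUBB2A, another isotype abundant in neurons, lies at chr6:3153497-3157544 (hg38). It had 41.7, 40.04 and 43.7 CPM in siMatrin3 libraries and 45.5, 52.2 and 56.5 CPM in siCTRL libraries. All siMatrin3 libraries lay below all siCTRL libraries, in CPM and in TPM. The log2 fold change was -0.30 ± 0.09 (SE, adjusted p = 0.0415). The call held without siCTRL replicate 1 (-0.37) and was lost without any other library, with adjusted p values up to 0.181. It was also lost when the counts of tubulin pseudogenes were added to their parent genes (-0.29, adjusted p = 0.0506). TUBB2B was at 0 in every library, so adding its row could not change the fit and tests nothing about reads shared with it.

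TUBB3, at chr16:89921392-89938761 (hg38), had 66.1, 77.5 and 66.1 CPM in siMatrin3 libraries and 72.3, 92.6 and 88.1 CPM in siCTRL libraries. Only siMatrin3 replicate 2 exceeded a siCTRL library, replicate 1. The log2 fold change was -0.29 ± 0.09 (SE) and did not pass the test (adjusted p = 0.0702). It passed without siMatrin3 replicate 2 (-0.36, adjusted p = 0.0389), without siCTRL replicate 1 (-0.38, adjusted p = 0.0218), and when the row of ENSG00000198211 was added to it (-0.30, adjusted p = 0.0497).

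The abundant beta isotypes differed less between the groups. TUBB lies at chr6:30717435-30725538 and TUBB4B at chr9:137241287-137243707 (hg38). TUBB had 1785, 1819 and 1833 CPM in siMatrin3 libraries and 1616, 1751 and 1686 CPM in siCTRL libraries. The groups did not overlap in CPM, at a log2 fold change of 0.11 ± 0.05 (SE) that did not pass the test (adjusted p = 0.215). In TPM they overlapped. TUBB4B, which ciliated cells also use in their axonemes, had 469, 434 and 467 CPM in siMatrin3 libraries and 471, 479 and 461 CPM in siCTRL libraries. Its groups overlapped in CPM (-0.04 ± 0.05, SE, adjusted p = 0.668). In TPM they did not, with 270 to 299 TPM in siMatrin3 libraries and 317 to 319 TPM in siCTRL libraries.

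Of the 4 alpha genes, 0 passed the test without a pairing term, beside 10.9% of all tested genes. Among the 4, 1, TUBA1C, had an unadjusted p under 0.05 (0.0291). TUBA1A, TUBA1B and TUBA1C lie on chromosome 12, where TUBA1A (chr12:49184686-49189080, hg38) overlaps TUBA1C (chr12:49188736-49274600) on the opposite strand and TUBA1B spans chr12:49127782-49131397. TUBA4A spans chr2:219249710-219277902. TUBA1B had 1292, 1190 and 1291 CPM in siMatrin3 libraries and 1318, 1320 and 1339 CPM in siCTRL libraries. The siMatrin3 libraries all lay lower, by a log2 fold change of -0.08 ± 0.05 (SE, adjusted p = 0.396). TUBA1C had 633, 541 and 599 CPM in siMatrin3 libraries and 574, 490.1 and 516 CPM in siCTRL libraries, which overlapped (0.17 ± 0.07, SE, adjusted p = 0.142). TUBA1A had 27.4, 49.8 and 45.1 CPM in siMatrin3 libraries and 39.1, 56.7 and 54.4 CPM in siCTRL libraries. Its spread was the widest among the members (-0.34 ± 0.18, SE, adjusted p = 0.269), and the log2 fold change was -0.10 without siMatrin3 replicate 1. TUBA4A had 28.1, 25.2 and 27.3 CPM in siMatrin3 libraries and 24.8, 24.8 and 22.01 CPM in siCTRL libraries. Its groups did not overlap in CPM, at a log2 fold change of 0.17 ± 0.10 (SE, adjusted p = 0.311), but overlapped in TPM.

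Libraries that carry the same replicate number deviated together weakly, so the replicate number was also fitted as a block. Of the 6 members that then passed, 3 were higher and 3 lower. The members added by the pairing were TUBA1C, higher (0.17 ± 0.04, SE, adjusted p = 0.0144), TUBA1A, lower (-0.30 ± 0.08, SE, adjusted p = 0.0245), and TUBB3, lower (-0.27 ± 0.07, SE, adjusted p = 0.0173). TUBA1A was lower in siMatrin3 cells in 3 of 3 pairs, by log2 ratios of -0.51, -0.19 and -0.27. TUBA1C was higher in 3 of 3 pairs, by 0.14, 0.14 and 0.21. TUBB3 was lower in 3 of 3 pairs, by -0.13, -0.26 and -0.41. TUBB4B was the only member without the same sign in all 3 pairs. How often all tested genes keep the same sign in 3 pairs was not counted, so this has no background share.

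**Figure D3:**
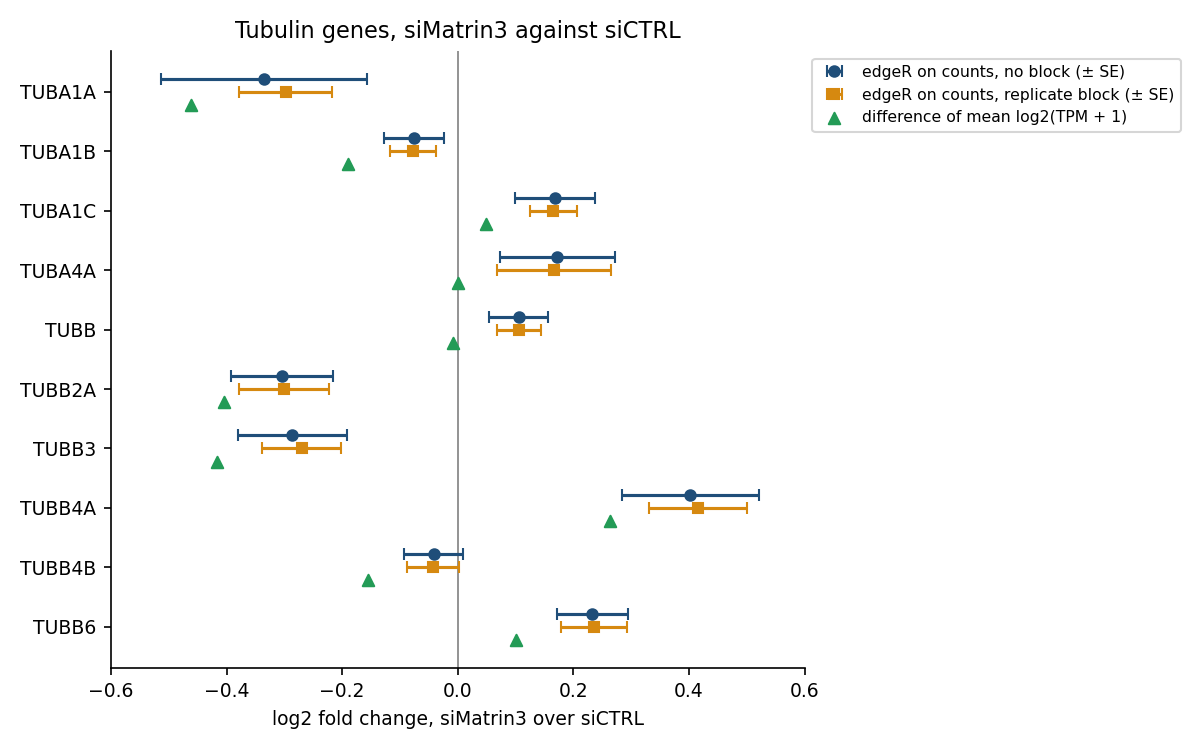
Log2 fold change of each member, siMatrin3 over siCTRL (horizontal axis), from edgeR on counts without (circles) and with (squares) the replicate block, with bars for ± SE, and as the difference of mean log2(TPM + 1) (triangles). The TPM values lie to the left of the count values for all 10 members, as the median of all tested genes did (-0.09).

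Counts and TPM are scaled differently. On log2(TPM + 1) the median of all tested genes was -0.09, and each member lay lower on this scale than in the counts. TUBA4A (-0.00) and TUBB (-0.01) then lost their positive sign. TUBB4A (0.26), TUBB6 (0.10) and TUBB2A (-0.40) kept their direction. None of the 10 members passed limma's test on this scale (4 had an unadjusted p under 0.05), where 1.04% of all tested genes passed. On counts, 0 of the 10 passed with RSEM's effective lengths as an offset (4 unadjusted p under 0.05), beside 204 of all 14334 tested genes. DESeq2 passed 1, TUBB4A, beside 1045 of the 14334.

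Because reads can pass between close copies, rows were added up before the fit. The 4 alpha genes together had 1980, 1806 and 1962 CPM in siMatrin3 libraries and 1956, 1891 and 1931 CPM in siCTRL libraries (-0.01 ± 0.05, SE, adjusted p = 0.954). The sum of TUBA1A, TUBA1B and TUBA1C alone likewise gave -0.01 (adjusted p = 0.937), although TUBA1C taken by itself lay higher and the other 2 lower. The 6 beta genes had 2500, 2521 and 2568 CPM in siMatrin3 libraries and 2320, 2502 and 2412 CPM in siCTRL libraries (0.07 ± 0.05, SE, adjusted p = 0.439). The ratio of alpha to beta TPM was 1.09 ± 0.06 in siMatrin3 cells and 1.13 ± 0.06 in siCTRL cells (SD, n = 3 each, exact two-sided permutation p = 0.5). In TPM, all 10 members together were lower in every siMatrin3 library, with 2250 to 2435 TPM against 2461 to 2554 TPM in siCTRL libraries. In CPM the same sum overlapped between the groups, so this direction holds on the TPM scale only. On log2(TPM + 1) the median of all tested genes was also below 0 (-0.09). Whether the lower sum goes beyond this general shift was not tested.

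The makeup of each family was compared as the share of a member in the summed TPM of the alpha or the beta genes. In siMatrin3 cells TUBA1B made up 61.7% ± 0.60 of alpha TPM and TUBA1C 34.5% ± 1.32, whereas in siCTRL cells TUBA1B made up 65.0% ± 1.21 and TUBA1C 30.8% ± 1.87 (SD, n = 3 each). Neither overlapped between the groups. Among beta genes, TUBB made up 62.0% ± 0.61 in siMatrin3 cells and 59.6% ± 0.38 in siCTRL cells, and TUBB4B 25.4% ± 1.02 and 27.0% ± 0.88. TUBB6 made up 4.85% ± 0.15 of beta TPM in siMatrin3 cells and 4.32% ± 0.11 in siCTRL cells, and TUBB3 3.69% ± 0.32 and 4.74% ± 0.33. TUBB2A had shares of 2.26% ± 0.08 and 2.90% ± 0.31, and TUBB4A of 1.84% ± 0.26 and 1.44% ± 0.08, in siMatrin3 and siCTRL cells. The groups did not overlap for 8 of the 10 shares, all but TUBA1A and TUBA4A. Shares have no counterpart over all genes, and in CPM the groups did not overlap for 29.8% of all tested genes. Each of the 8 reached the smallest p that 3 against 3 allows (exact two-sided permutation p = 0.1, 0.125 after Benjamini-Hochberg adjustment over the 10). Shares within a family add up to the whole and are not independent, and shares of counts in place of TPM gave the same direction for all 10. The ratio of TUBB6 to TUBB3 TPM, chosen after the levels were seen, was 1.36, 1.23 and 1.36 in siMatrin3 libraries and 1.01, 0.842 and 0.892 in siCTRL libraries.

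**Figure D4:**
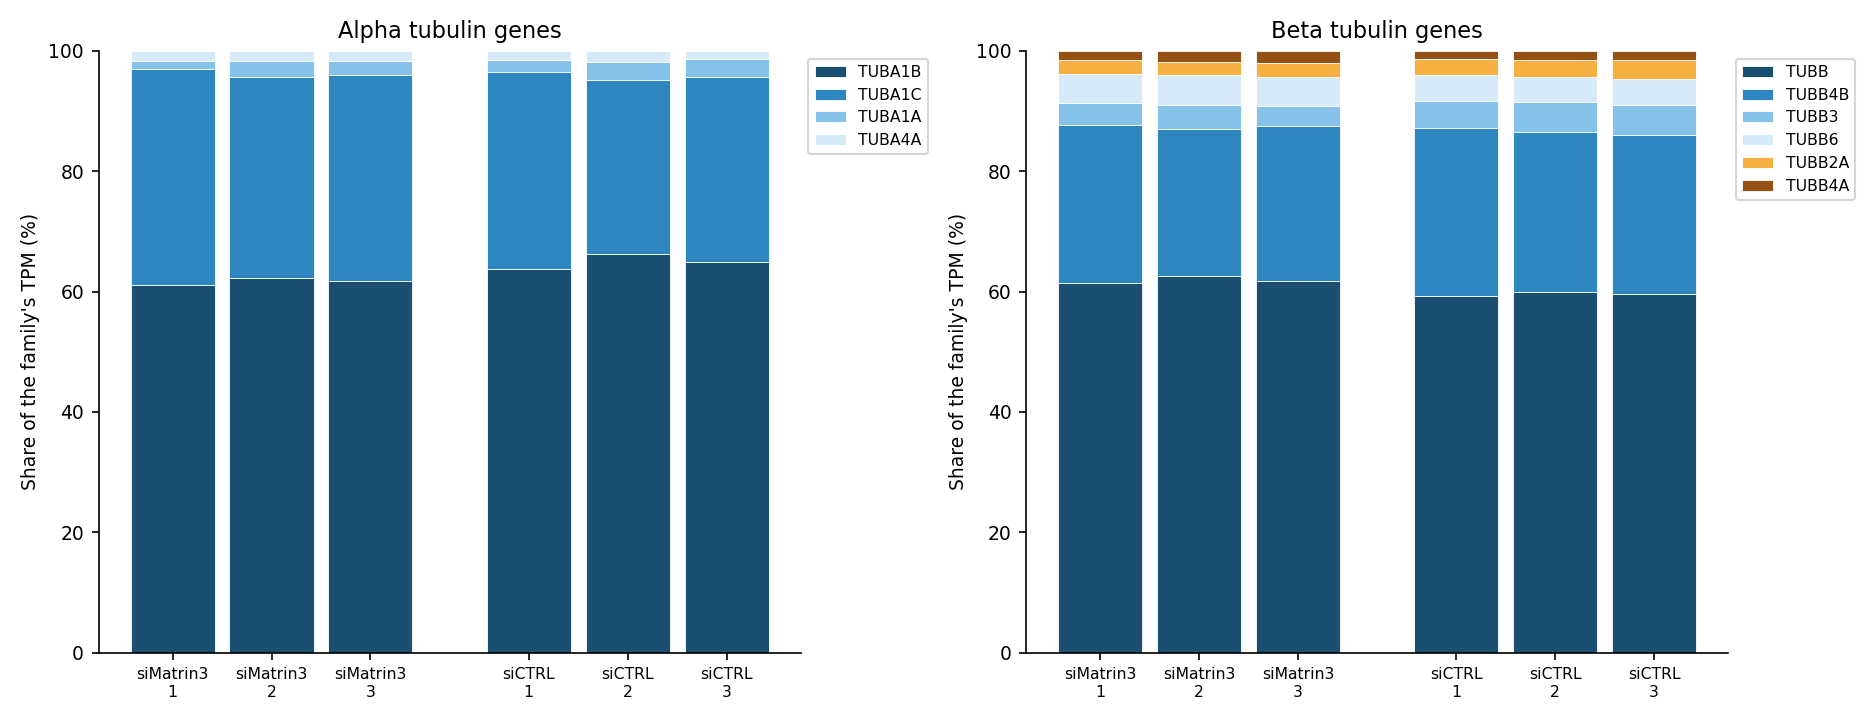
Share of each member in the summed TPM of the alpha genes (left panel) or the beta genes (right panel), in percent (vertical axis), for each siMatrin3 library (left bars) and siCTRL library (right bars). TUBA1B took 61.7% of alpha TPM in siMatrin3 cells and 65.0% in siCTRL cells on average, and TUBB took 62.0% and 59.6% of beta TPM.

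Several members share their locus with genes on the other strand, and whether reads were counted by strand is not given in the sources used here. TUBA1B has 68.69% of its windows in reverse in TUBA1B-AS1, a non-coding RNA of the opposite strand, which had 395 ± 20.9 TPM in siMatrin3 cells and 416 ± 34.6 TPM in siCTRL cells (SD, n = 3 each). TUBA1B-AS1 did not pass the test (0.08 ± 0.07, SE, adjusted p = 0.512). Adding TUBA1B-AS1 and ENSG00000258232, a non-coding RNA antisense to TUBA1C, to the sum of the 3 TUBA1 genes gave a log2 fold change of 0.00 (adjusted p = 0.991).

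TUBB4A overlaps 2 non-coding genes of the opposite strand. ENSG00000268203, which holds 9.83% of the TUBB4A windows in reverse, had 3.79, 0 and 0 estimated counts in siMatrin3 libraries and 14.4, 24.0 and 16.6 in siCTRL libraries, and fell (adjusted p = 0.00309). ENSG00000268191, with 19.75% of the windows, had 18.1, 20.1 and 0 estimated counts in siMatrin3 libraries and 10.2, 2.81 and 0 in siCTRL libraries (adjusted p = 0.397). With both added to it, TUBB4A had 42.4, 51.5 and 55.8 CPM in siMatrin3 libraries and 37.5, 41.4 and 39.4 CPM in siCTRL libraries (0.32 ± 0.10, SE, adjusted p = 0.0556), which no longer passed. In TPM this sum was lower in every siMatrin3 library, with 23.5 to 27.6 TPM against 29.7 to 33.2 TPM in siCTRL libraries. ENSG00000268203 alone had 2.04, 0 and 0 TPM in siMatrin3 libraries and 12.9, 11.5 and 12.3 TPM in siCTRL libraries. TUBB4A alone went the other way, with means of 20.7 TPM in siMatrin3 cells and 17.0 TPM in siCTRL cells. How reads were divided between TUBB4A and these rows was not tested.

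Tubulin pseudogenes held few counts. TUBB8P1, the highest, had 17.1 ± 0.36 CPM in siMatrin3 cells and 13.98 ± 1.37 CPM in siCTRL cells (SD, n = 3 each, adjusted p = 0.157). TUBBP1, which shares windows with TUBB, had at most 28.1 estimated counts in a library.

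The other genes of the tubulin pathway were taken as 4 lists. Of 14 further tubulin genes, 4 had enough counts for the test (TUBG1, TUBG2, TUBD1 and TUBE1). Of these 0 passed, beside 10.9% of all tested genes (adjusted p from 0.708 to 0.999, median log2 fold change -0.00). The count is also 0 at an unadjusted p under 0.05. TUBG1 encodes the gamma tubulin that nucleates microtubules at the centrosome, and it had 87.6 ± 2.03 CPM in siMatrin3 cells and 90.1 ± 2.27 CPM in siCTRL cells (SD, n = 3 each).

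Of the 23 folding genes tested, which encode the CCT chaperonin, prefoldin and the tubulin cofactors, 1 rose, none fell and 22 did not pass, at a median of 0.08, beside 10.9% of all tested genes past the threshold. CCT3, a subunit of the chaperonin ring, had 644, 651 and 673 CPM in siMatrin3 libraries and 560.0, 601 and 568 CPM in siCTRL libraries (0.19 ± 0.05, SE, adjusted p = 0.0291). Nearest to it was the prefoldin subunit PFDN6, with 26.9 ± 2.32 CPM in siMatrin3 cells and 21.1 ± 0.70 CPM in siCTRL cells (SD, n = 3 each, adjusted p = 0.0511).

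Of 13 genes of tubulin mRNA autoregulation, 1 fell and 12 did not pass, at a median of -0.02, where 5.18% of all tested genes fell. CNOT9, a subunit of CCR4-NOT, had 89.7 ± 3.97 CPM in siMatrin3 cells and 104 ± 5.06 CPM in siCTRL cells (SD, n = 3 each), a log2 fold change of -0.22 (adjusted p = 0.0442). TTC5 (-0.02 ± 0.11, SE, adjusted p = 0.950) and SCAPER (-0.05 ± 0.18, SE, adjusted p = 0.895) did not pass.

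Of 18 tested genes for enzymes and partners that modify tubulin, 1 rose, 2 fell and 15 did not pass, at a median of -0.14, beside 10.9% of all tested genes past the threshold. TTLL7, a polyglutamylase that acts on beta tubulin tails, had 21.3, 23.0 and 18.4 CPM in siMatrin3 libraries and 33.4, 32.6 and 28.9 CPM in siCTRL libraries (-0.60 ± 0.11, SE, adjusted p = 0.00374). TTLL4, which starts glutamate side chains, had 67.4 ± 6.16 CPM in siMatrin3 cells and 82.4 ± 5.64 CPM in siCTRL cells (SD, n = 3 each), a log2 fold change of -0.29 (adjusted p = 0.0362). TTLL12, of the same family, rose, with 213, 186 and 211 CPM in siMatrin3 libraries and 158, 161 and 155 CPM in siCTRL libraries (0.36 ± 0.06, SE, adjusted p = 0.00271). TTL, the tyrosine ligase, had 104 ± 2.04 CPM in siMatrin3 cells and 98.7 ± 5.37 CPM in siCTRL cells (SD, n = 3 each, adjusted p = 0.495).

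Over the 4 lists 5 of 58 tested genes passed, beside 10.9% of all tested genes. With the replicate block 12 did, 6 higher and 6 lower, beside 15.8% of all tested genes. The block added CCT4, PFDN6, TBCA and CNOT1 among the higher and TBCE, TTLL3 and TTLL5 among the lower. Of the 5, TTLL7 and TTLL12 each passed in 14 of 17 alternatives, CCT3 and TTLL4 in 9, and CNOT9 in 6. The log2 fold change of TTLL4 was -0.03 with effective lengths as an offset (adjusted p = 0.938) and -0.13 on log2(TPM + 1) (adjusted p = 0.584). On log2(TPM + 1), CCT3 was at 0.06 (adjusted p = 0.596) and TTLL12 at 0.23 (adjusted p = 0.296).

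**Figure D5:**
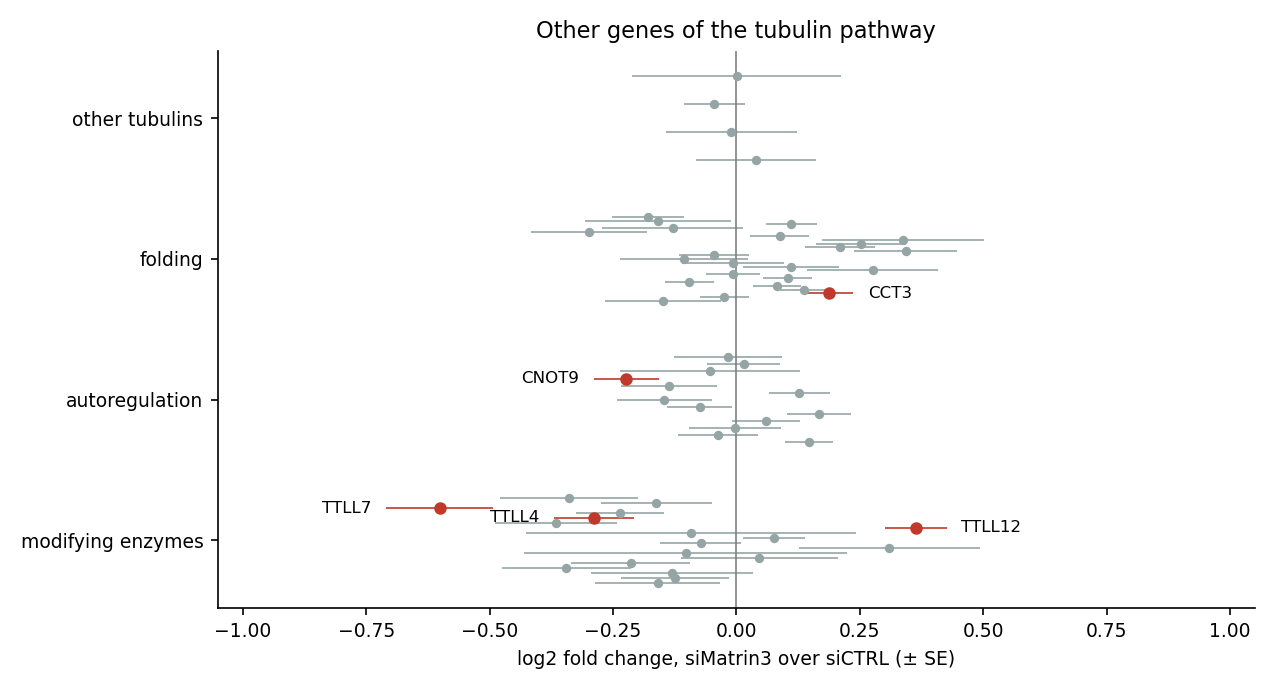
Log2 fold change, siMatrin3 over siCTRL (horizontal axis), with bars for ± SE, of each tested gene in the 4 lists. Red points with names passed the test (CCT3 and TTLL12 higher, CNOT9, TTLL4 and TTLL7 lower) and grey points did not.

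Markers were read because TUBB2A, TUBB3 and TUBB4A are isotypes of neurons. Of 10 neuronal markers, 4 were at 0 in all libraries (ELAVL4, STMN2, NEFL and NEFM) and 2 could be tested, with summed levels of 30.7 to 44.4 CPM in siMatrin3 libraries and 42.3 to 45.6 CPM in siCTRL libraries. MAP2, a microtubule-associated protein of dendrites, fell (7.14 ± 1.84 CPM in siMatrin3 cells and 11.7 ± 2.49 CPM in siCTRL cells, SD, n = 3 each, adjusted p = 0.0464). SYT1, the other one tested and the larger part of these sums, overlapped between the groups and did not pass (adjusted p = 0.384). It had 27.9 ± 4.70 CPM in siMatrin3 cells and 31.2 ± 1.31 CPM in siCTRL cells (SD, n = 3 each). Of 8 markers of colon epithelium, 6 were tested and 2 rose, EPCAM and KRT19, where 5.68% of all tested genes rose, with summed levels of 1798 to 1897 CPM in siMatrin3 libraries and 1576 to 1723 CPM in siCTRL libraries. KRT8, KRT18, CDH1 and CDX2 did not pass. LGALS4, at or near 0, and VIL1 were too low to test. VIL1 averaged 1.21 CPM in siMatrin3 cells and 0.235 CPM in siCTRL cells. Of 6 fibroblast markers 4 were at 0, with summed levels of 16.9 to 21.6 CPM in siMatrin3 libraries and 18.6 to 20.2 CPM in siCTRL libraries, nearly all from COL1A1, and 5 blood markers summed to at most 1.04 CPM in any library. The part of these shifts in the tubulin values was not tested.

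Genes whose profile over the 6 libraries was closest to that of each called member were found by the root mean square distance of centred log2 CPM among genes averaging 5 CPM or more. For TUBB6 these were HACD3 (0.0141), TMED2 (0.0145) and TMED10 (0.0206). For TUBB4A they included TIGD5 (0.0351) and GPT2 (0.0671), and for TUBB2A they were LPAR1 (0.0250), ZMYND11 (0.0260) and ESYT2 (0.0330).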

How the data were processed

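Total RNA of 6 HCT116 cultures was sequenced as single-end reads, after ribosomal RNA depletion per the methods, whereas the labels name a stranded mRNA kit. Per the labels, the authors used cutadapt, TopHat and RSEM on hg19. The authors' RSEM tables give an expected count per gene, an unnormalized estimate. The deposited TPM values are relative to each library, and the authors' effective length is in bases. Neither annotation release nor strand setting is stated in these sources. Of the gene IDs, 58472 (99.3%) were matched to GENCODE 44 on hg38, the source of symbols, positions and sequences.

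Expected counts were rounded, filtered by filterByExpr (minimum count 10, minimum total 15), scaled by TMM, and compared with the quasi-likelihood test of edgeR 4.0.16 (R 4.3.3) and Benjamini-Hochberg adjustment over all 14334 genes at 0.05, two-sided. The SE is the log2 fold change over the square root of F. The alternatives used limma 3.58.1 and DESeq2 1.42.0. The fit was tested on simulated data. Same-numbered libraries had weakly correlated deviations from their group means (0.146, 0.140 and 0.141, against -0.109 to -0.036 for other pairs). Because deviations are centred within each group, positive values for the former push the latter below 0. The numbers were taken as a possible pairing on these correlations alone, since the labels do not say what they mark. Replicates differed by more than counting noise (chi-square over its degrees of freedom 2.67 to 4.39), and p-values measure the spread between cultures of 1 line. Named were all members, MATR3, other tubulin genes, listed genes past the threshold or with the lowest p, the highest pseudogenes, overlapping genes and the 3 closest profiles, of which 1 is not reported here. TTC5, SCAPER, TTL, the markers, and sums with antisense or read-through rows were named after values were seen. Members and lists were chosen with earlier results of these data known.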

Additional observations from a re-analysis of the deposited data

How the results depend on the processing

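RLE and upper quartile scaling and leaving out mitochondrial and small RNA genes each gave 3 members past the threshold. A minimum of 1 CPM in 3 libraries gave 2, without TUBB4A (adjusted p = 0.0509). No filter gave 6, the replicate block 6, DESeq2 1, and effective lengths as an offset, log2(TPM + 1), log2(TPM + 0.1) and an adjusted p of 0.01 gave 0 (4 unadjusted p under 0.05 under the first 3). Leaving out 1 library gave 0 to 2. Over all genes, 1557 of 14334 passed. Without a filter 1979 of 34319 passed, and with a minimum of 1 CPM in 3 libraries 1466 of 15817. Of the same 14334 genes, 2259 passed with the replicate block, 1045 with DESeq2 and 204 with effective lengths. On log2(TPM + 1) 149 of them passed, on log2(TPM + 0.1) 132, and at an adjusted p of 0.01 589. Without 1 library 707 to 1256 passed, of 14529 to 15035 tested. Of the listed genes, 5 passed, against 12 with the replicate block, 0 on log2(TPM + 1) (15 unadjusted), and 2 to 4 without 1 library. The medians of all genes on the TPM scales were -0.09 and -0.10. Some uncalled log2 fold changes took the other sign, at values near 0. TUBA4A gave -9.6e-05 and -3.3e-05 and TUBB -0.00765 and -0.00766 on log2(TPM + 1) and log2(TPM + 0.1). TUBA1A, TUBA1B and TUBA1C kept their sign in every fit of their own rows. The sum of the 3 TUBA1 genes gave -0.00988, against the sign of TUBA1C. With its antisense rows that sum gave 0.0014, against the sign of TUBA1A and TUBA1B, an alternative added after the data were seen. Without a filter the alpha sum gave 0.0106 and the TUBA1 sum 0.0083. Without 1 library they ranged from -0.0342 to 0.0317 and from -0.0364 to 0.0293. The causes were not tested. At 15.4 to 881 TPM per library depth did not limit detection of the members, whereas shared reads limit which copy a count belongs to.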
